A study of Mus musculus with 21 samples.

Results

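The data describe 46 cell cycle and mitosis genes in mice on a methionine-restricted (MR) diet or a control chow diet, measured by RNA sequencing in 3 materials. The genes were taken by symbol from the deposited tables, which together list 16835 genes. They comprise 12 DNA replication genes, 5 genes of the G1 to S transition and 29 genes of mitosis. Splenic CD8+ T cells gave 3 MR and 3 control libraries. MC38 tumors, from a mouse colon carcinoma line, gave 4 MR and 4 control libraries, and BPD6 tumors, from a mouse melanoma line, gave 3 MR and 4 control libraries, the MR ones numbered 1, 2 and 4 as in the deposited table. The samples are labelled as tumor cells and the series design speaks of tumors, and neither says whether the spleens came from tumor-bearing mice. The RNA was selected for poly-A tails. The labels give no strain, age, length of feeding or methionine content, and do not say whether libraries of a group came from separate animals. All p-values thus rest on the variation among the libraries at hand, part of which may be technical. Of the 46 genes, 45 were listed for CD8+ T cells (Hmmr was not) and all 46 for each tumor model.

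A cell that divides copies its DNA in S phase and separates the copies in mitosis. The MCM proteins form the replicative helicase, Cdc6 and Cdc45 help to load and start it, PCNA is the clamp of the DNA polymerases, and Rrm1, Rrm2 and Tyms serve the supply of deoxynucleotides. Cyclin E (Ccne1, Ccne2) and E2f1 act at the entry into S phase, whereas cyclin B with Cdk1, the Aurora and Polo kinases, the kinesins and the spindle checkpoint act in mitosis. Most splenic CD8+ T cells are at rest and start to divide upon activation, and tumor cells divide continuously.

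Promoters of mitotic genes often carry the CHR, an element recognised by the MuvB protein complex, together with CCAAT boxes, which bind NF-Y, and promoters of S phase genes often carry E2F sites. RefSeq promoters (GRCm38.p6) were found for 39 of the 46 genes and were read from 250 bases before to 30 bases after the start annotated for the promoter. This start can differ from that of the gene positions given further on, as for Spag5 and Mki67. The windows of Cdc6 and E2f1 lie inside the gene. Both strands were searched for the CHR letters TTTGAA, for the CCAAT box by its own letters, and for the E2F letters TTTNNCGC. The CHR letters were found in 14 of 24 mitosis genes and 2 of 11 replication genes, against 19.5% of 27025 genes with a promoter in the table. The CCAAT letters were found in 19 of 24 mitosis genes and 9 of 11 replication genes, against 39.7% of all genes. The E2F letters were found in 1 of 24 mitosis genes and 5 of 11 replication genes, against 5.57% of all genes. In the lists of other mitosis and other replication genes described further on, they were found in 14 of 61 and 8 of 33, so that the contrast did not extend to them. The window was chosen after counts in other windows had been seen. Without the 30 bases after the start, the CHR letters remained in 8 of 24 mitosis genes and in 18.3% of all genes. The sequences below are those of the 6 genes that fell in MR CD8+ T cells and, for comparison, of the helicase gene Mcm6, which carried no CHR letters and did not pass the test there. They are written 5′ to 3′ on the strand of the gene, and capitals mark the motif letters, spelled as the reverse complement where the motif lies on the other strand. Capitals run together where matches touch or overlap, as in Uhrf1 and Mcm6.
Birc5 (chr11:117848987-117849266, plus strand): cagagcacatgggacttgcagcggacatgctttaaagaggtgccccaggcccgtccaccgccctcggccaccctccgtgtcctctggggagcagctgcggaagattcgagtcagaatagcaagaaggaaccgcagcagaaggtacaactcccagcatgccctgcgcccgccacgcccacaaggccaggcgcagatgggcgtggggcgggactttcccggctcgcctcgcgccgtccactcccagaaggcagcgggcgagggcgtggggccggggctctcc
Spag5 (chr11:78301341-78301620, plus strand): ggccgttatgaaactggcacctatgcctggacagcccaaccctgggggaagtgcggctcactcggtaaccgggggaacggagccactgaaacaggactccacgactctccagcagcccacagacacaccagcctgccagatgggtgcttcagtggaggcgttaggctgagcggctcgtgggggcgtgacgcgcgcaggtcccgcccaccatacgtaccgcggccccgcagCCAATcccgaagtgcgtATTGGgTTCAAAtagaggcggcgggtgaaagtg
Rrm2 (chr12:24708004-24708283, plus strand): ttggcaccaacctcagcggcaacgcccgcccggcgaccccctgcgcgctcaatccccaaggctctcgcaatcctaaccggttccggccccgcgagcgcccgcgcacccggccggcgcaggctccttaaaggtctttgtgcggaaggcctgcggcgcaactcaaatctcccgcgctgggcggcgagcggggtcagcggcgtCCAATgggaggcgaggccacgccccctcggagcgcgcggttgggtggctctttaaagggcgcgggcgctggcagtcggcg
Mki67 (chr7:135716350-135716629, minus strand): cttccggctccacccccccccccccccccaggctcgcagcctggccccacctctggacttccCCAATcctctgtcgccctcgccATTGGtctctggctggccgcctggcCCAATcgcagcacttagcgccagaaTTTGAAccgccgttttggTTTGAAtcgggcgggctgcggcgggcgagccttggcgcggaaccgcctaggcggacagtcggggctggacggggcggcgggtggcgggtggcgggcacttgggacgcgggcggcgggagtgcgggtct
Uhrf1, start A (chr17:56303087-56303366, plus strand): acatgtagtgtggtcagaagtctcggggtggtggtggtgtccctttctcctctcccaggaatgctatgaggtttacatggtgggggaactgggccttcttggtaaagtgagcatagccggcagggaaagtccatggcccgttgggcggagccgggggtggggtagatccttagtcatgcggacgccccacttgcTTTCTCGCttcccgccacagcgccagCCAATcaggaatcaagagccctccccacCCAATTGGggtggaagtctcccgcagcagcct
Uhrf1, start B (chr17:56304063-56304342, plus strand): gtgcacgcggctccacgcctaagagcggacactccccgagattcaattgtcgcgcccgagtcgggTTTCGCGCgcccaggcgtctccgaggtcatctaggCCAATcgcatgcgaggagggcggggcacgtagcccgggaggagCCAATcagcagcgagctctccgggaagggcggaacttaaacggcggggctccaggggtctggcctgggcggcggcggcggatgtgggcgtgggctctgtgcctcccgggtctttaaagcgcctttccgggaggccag
Cdk1 (chr10:69352883-69353162, minus strand): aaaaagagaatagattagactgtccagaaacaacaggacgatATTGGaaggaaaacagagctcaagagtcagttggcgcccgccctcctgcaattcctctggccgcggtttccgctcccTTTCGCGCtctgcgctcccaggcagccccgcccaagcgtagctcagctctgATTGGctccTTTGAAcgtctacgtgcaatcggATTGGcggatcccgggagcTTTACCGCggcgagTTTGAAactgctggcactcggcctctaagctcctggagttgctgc
Mcm6 (chr1:128359676-128359955, minus strand): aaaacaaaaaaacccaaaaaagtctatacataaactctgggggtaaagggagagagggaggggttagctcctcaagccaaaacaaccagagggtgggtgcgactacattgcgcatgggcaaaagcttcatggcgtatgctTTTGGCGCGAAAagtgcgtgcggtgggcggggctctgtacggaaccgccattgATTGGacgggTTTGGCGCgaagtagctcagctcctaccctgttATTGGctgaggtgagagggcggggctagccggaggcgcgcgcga
In these windows Cdk1 held 2 CHR, 3 CCAAT and 2 E2F matches, and Mki67 held 2 CHR and 3 CCAAT matches. Spag5 held 1 CHR and 2 CCAAT matches, Rrm2 held 1 CCAAT match, and Birc5 held none of the letters. Uhrf1 has 2 annotated starts, each with CCAAT and E2F matches, and Mcm6 held 2 CCAAT and 3 E2F matches. A match is a description of the letters and not a binding site.

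Library totals lay between 15733774 and 24129562 counts. Levels are given as CPM, counts scaled to the library's total over the genes tested, with TMM factors. The T cell libraries carried the T cell markers, with Cd8a at 1361 CPM in MR and 1501 CPM in control libraries on average. Cd8b1 (430 and 321 CPM) and Cd3e (179 and 135 CPM) were higher in MR on average, and Cd4 stood at 2.96 and 3.0 CPM. Of 10 melanocyte markers, 5 were not listed for BPD6 (Mlana, Tyr, Tyrp1, Dct and Slc45a2), and Pmel averaged 1.21 CPM in MR and 1.14 CPM in control tumors. Mitf averaged 20.1 CPM in MR and 18.5 CPM in control BPD6 tumors, and Sox10 4.72 and 1.72 CPM. The 5 listed markers summed to 58.9 to 75.9 CPM in MR and 42.8 to 81.4 CPM in control tumors. The epithelial marker Epcam averaged 3.19 CPM in MR and 1.37 CPM in control MC38 tumors, and Cdx2 was not listed. Epcam averaged 3.59 and 3.15 CPM in T cells and 2.63 and 0.954 CPM in BPD6 tumors. Pmel averaged 233 and 203 CPM in T cells, and Sox10 9.14 and 0.417 CPM in MC38 tumors. Epcam, Pmel and Sox10 therefore did not identify the tumor models here. Mitf was lower outside BPD6, at 7.69 and 8.55 CPM in MC38 tumors and 2.57 and 1.57 CPM in T cells. In bulk samples, fewer cells of a type and less RNA per cell cannot be told apart. In GENCODE M21, some of the genes share exon bases with a gene on the opposite strand. As the strandedness of the libraries is not given, reads of genes that overlap on opposite strands cannot be told apart. This concerns 11 of the 46 genes, none of them among the 6 that fell in T cells, for instance Ccna2 (Exosc9), Plk1 (Gm44985), Cdc20 (Elovl1), Kif20a (Cdc23) and Ube2c (Tnnc2).

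In splenic CD8+ T cells, 4 mitosis genes and the S phase genes Rrm2 and Uhrf1 fell with MR, and the helicase genes did not pass the test. Of 44 genes tested, 6 fell (edgeR quasi-likelihood test, Benjamini-Hochberg adjusted p under 0.05 over 12348 genes) and 0 rose, against 0.818% of all genes that fell and 0.591% that rose. The 6 were Birc5, Spag5, Cdk1 and Mki67 of mitosis, Uhrf1 of the G1 to S genes and Rrm2 of replication. At an unadjusted p under 0.05 there were 15 of the 44 genes, against 17.3% of all genes. DESeq2 called 9 of the 44 genes and limma-voom 4, against 593 and 134 of all 12348 genes, where edgeR called 174. The number of edgeR calls rested on single libraries, in the set and over all genes. It was 0 without MR library 1, 3 without MR library 3 (Rrm2, Spag5 and Cdk1 missed) and 1 (Birc5) without control library 1. Over all genes it was 7, 200 and 36 in these fits. Without MR library 1 the median log2 fold change of the set was -0.43. Spag5 and Cdk1 missed without control library 2, Uhrf1 without control library 3, and Uhrf1 and Cdk1 without MR library 2. In the authors' deposited table, 9 of the 45 listed genes had an adjusted p under 0.05, all lower in MR, against 2.32% of all genes lower and 1.97% higher. The log2 fold change was below 0 for 38 of the 44 genes, against 49.6% of all genes. These were 12 of 12 replication, 5 of 5 G1 to S and 21 of 27 mitosis genes tested. The median log2 fold change was -0.29 for replication, -0.32 for G1 to S and -0.89 for mitosis genes, against 0.01 for all genes. The difference between these roles was not tested.

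**Figure D1:**
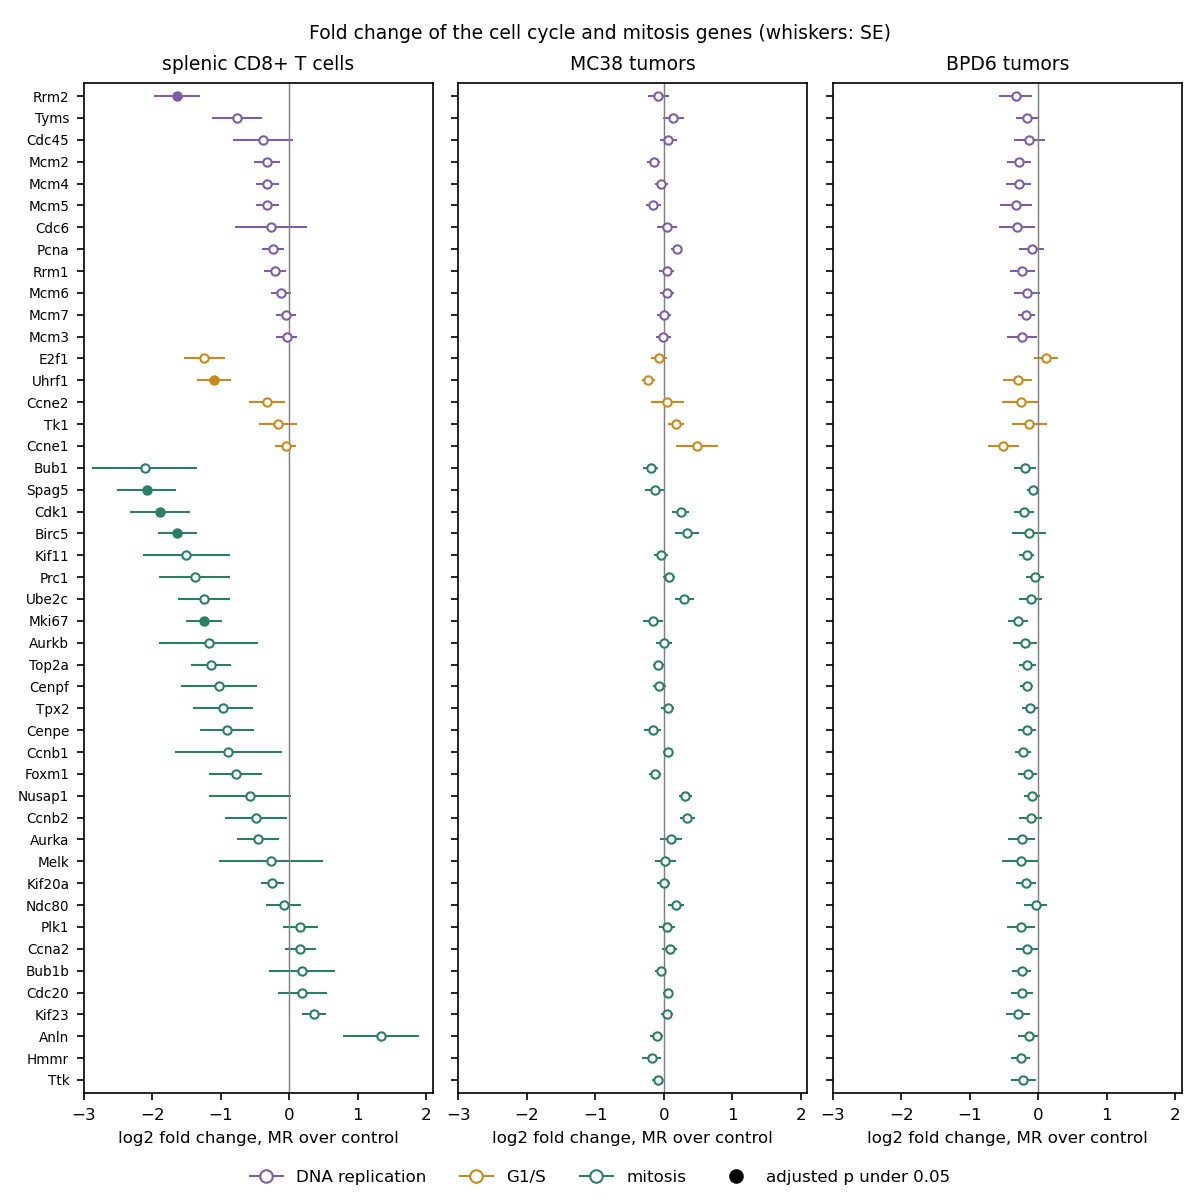
Log2 fold change of MR over control (x axis, whiskers are SE) for each gene (y axis, ordered by role and by the value in CD8+ T cells) in the 3 materials, with filled points for an adjusted p under 0.05. The 6 filled points all lie in CD8+ T cells and below 0, the MC38 points spread around 0, and 45 of 46 BPD6 points lie below 0.

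Birc5, which encodes survivin, a subunit of the chromosomal passenger complex (chr11:117849237-117855743, GRCm38.p6), had the lowest p. It stood at 2.89, 3.72 and 4.98 CPM in MR libraries, against 11.6, 10.9 and 13.6 CPM in control libraries. All MR libraries lay below all control libraries, and the log2 fold change was -1.63 ± 0.29 (SE, edgeR adjusted p = 0.0152). Spag5, which encodes the spindle protein astrin (chr11:78301470-78322457), stood at 0.924, 1.04 and 1.14 CPM in MR libraries, against 4.94, 4.34 and 3.90 CPM in control libraries. The groups were apart by more than the range within either, and the log2 fold change was -2.08 ± 0.43 (edgeR adjusted p = 0.0294). Its row refers to the noncoding transcript NR_156178.

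Cdk1, the kinase that drives entry into mitosis (chr10:69335146-69352912), stood at 0.866, 1.11 and 1.56 CPM in MR libraries, against 5.19, 3.91 and 4.03 CPM in control libraries. The groups did not overlap (log2 fold change -1.89 ± 0.44, edgeR adjusted p = 0.0456), but the call was kept under only 5 of 14 alternative settings, against 12 of 14 for Birc5. Mki67, the gene of the proliferation antigen Ki-67 (chr7:135689784-135716450), stood at 10.4, 18.0 and 24.5 CPM in MR libraries, against 52.7, 33.3 and 39.0 CPM in control libraries. MR library 1 was the lowest of the 6 and control library 1 the highest, and the log2 fold change was -1.24 ± 0.26 (edgeR adjusted p = 0.0295).

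**Figure D2:**
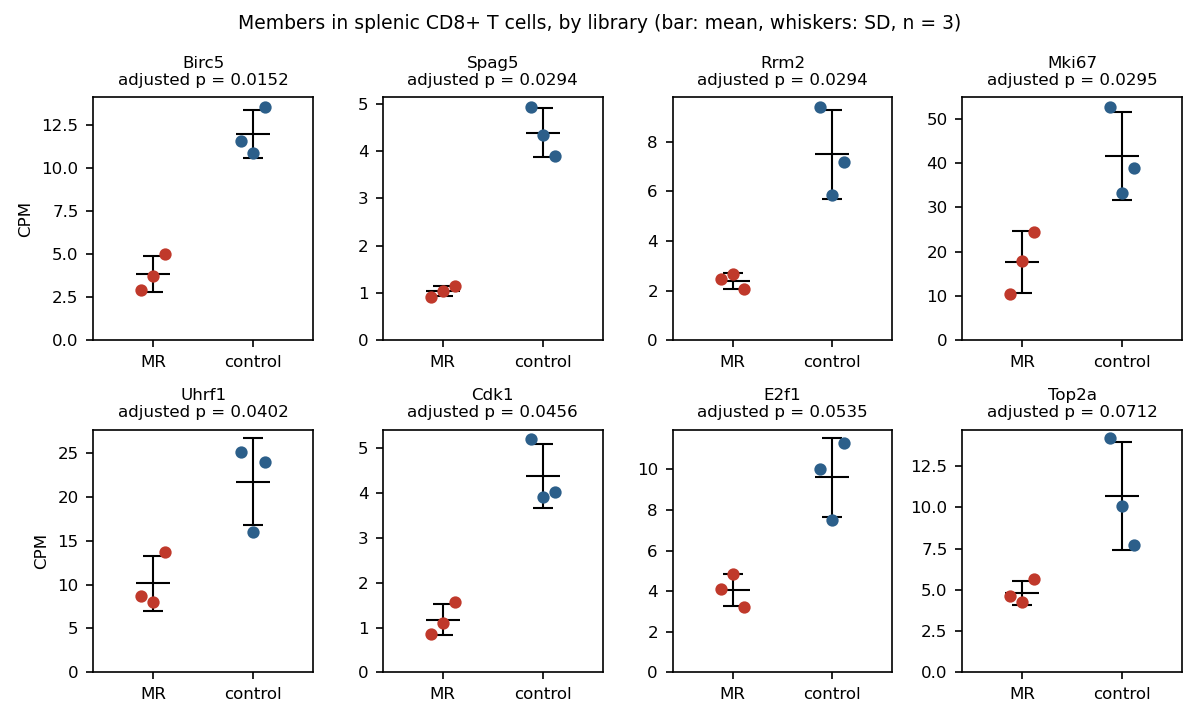
CPM (y axis) of the 6 genes that fell in CD8+ T cells and of E2f1 and Top2a, with a point for each library, MR on the left and control on the right, a bar at the mean and whiskers at the SD (n = 3 each). In all 8 panels the MR points lie below the control points, and E2f1 and Top2a have adjusted p-values of 0.0535 and 0.0712.

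Other mitosis genes had large differences with wide errors. Top2a, which encodes the topoisomerase that untangles sister DNA, averaged 4.83 ± 0.728 CPM in MR and 10.7 ± 3.27 CPM in control libraries (SD, n = 3 each), without overlap (log2 fold change -1.14 ± 0.30, edgeR adjusted p = 0.0712). DESeq2 called Top2a, as it did E2f1 and Ube2c, which encodes the ubiquitin-conjugating enzyme of the anaphase-promoting complex. The spindle checkpoint kinase gene Bub1 stood at 0.520, 0.261 and 0.541 CPM in MR libraries, against 4.11, 0.651 and 1.01 CPM in control libraries. Its log2 fold change of -2.11 ± 0.76 was the lowest of the 44 genes tested, and control library 1 alone was well above the rest (edgeR adjusted p = 0.168). Cyclin B1 (Ccnb1) stood at 0.866, 0.783 and 0.480 CPM in MR libraries, against 1.29, 2.50 and 0.134 CPM in control libraries, so that the MR values lay within the control range. Foxm1, the transcription factor of the G2 to M program, averaged 5.90 ± 3.43 CPM in MR and 10.2 ± 2.82 CPM in control libraries, with overlap (edgeR adjusted p = 0.321).

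Of the 5 G1 to S genes, Uhrf1 fell. Uhrf1, which guides maintenance DNA methylation to replicated DNA (chr17:56303337-56323486), stood at 8.66, 8.02 and 13.7 CPM in MR libraries, against 25.1, 16.02 and 23.98 CPM in control libraries. The groups did not overlap (log2 fold change -1.10 ± 0.25, edgeR adjusted p = 0.0402). E2f1, an activator of S phase genes (chr2:154559400-154569892), stood at 4.10, 4.83 and 3.24 CPM in MR libraries, against 10.03, 7.49 and 11.3 CPM in control libraries. It missed the threshold (log2 fold change -1.24 ± 0.30, edgeR adjusted p = 0.0535), although the groups did not overlap. The cyclin E genes differed less, with log2 fold changes of -0.05 ± 0.16 for Ccne1 and -0.32 ± 0.26 for Ccne2.

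Among replication genes, Rrm2 fell and the 6 MCM genes did not pass the test. Rrm2, the small subunit of ribonucleotide reductase (chr12:24708254-24714146), stood at 2.48, 2.67 and 2.04 CPM in MR libraries, against 9.41, 5.86 and 7.19 CPM in control libraries. All MR values lay below all control values (log2 fold change -1.64 ± 0.34, edgeR adjusted p = 0.0294). The large subunit Rrm1 stood at 26.3, 27.4 and 28 CPM in MR libraries, against 34.0, 29.3 and 30.9 CPM in control libraries. It also did not overlap, but its log2 fold change was -0.21 ± 0.16 (edgeR adjusted p = 0.535).

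The MCM genes had log2 fold changes from -0.32 to -0.04, with edgeR adjusted p-values of 0.393 for Mcm2 and 0.337 for Mcm5. Mcm5 stood at 29.6, 42.4 and 34.0 CPM in MR libraries, against 45.0, 42.7 and 44.3 CPM in control libraries, with MR library 2 just under the controls. Pcna averaged 90.4 ± 12.2 CPM in MR and 107 ± 13.9 CPM in control libraries. The thymidylate synthase gene Tyms averaged 2.80 ± 0.548 CPM in MR and 4.73 ± 0.758 CPM in control libraries (log2 fold change -0.76 ± 0.37, edgeR adjusted p = 0.303). Cdc6 overlapped between groups, with a log2 fold change of -0.27 ± 0.53. The summed CPM of the 12 replication genes was 460 to 529 in MR libraries and 538 to 571 in control libraries, and that of the 28 listed mitosis genes was 155 to 201 in MR libraries and 214 to 267 in control libraries.

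**Figure D3:**
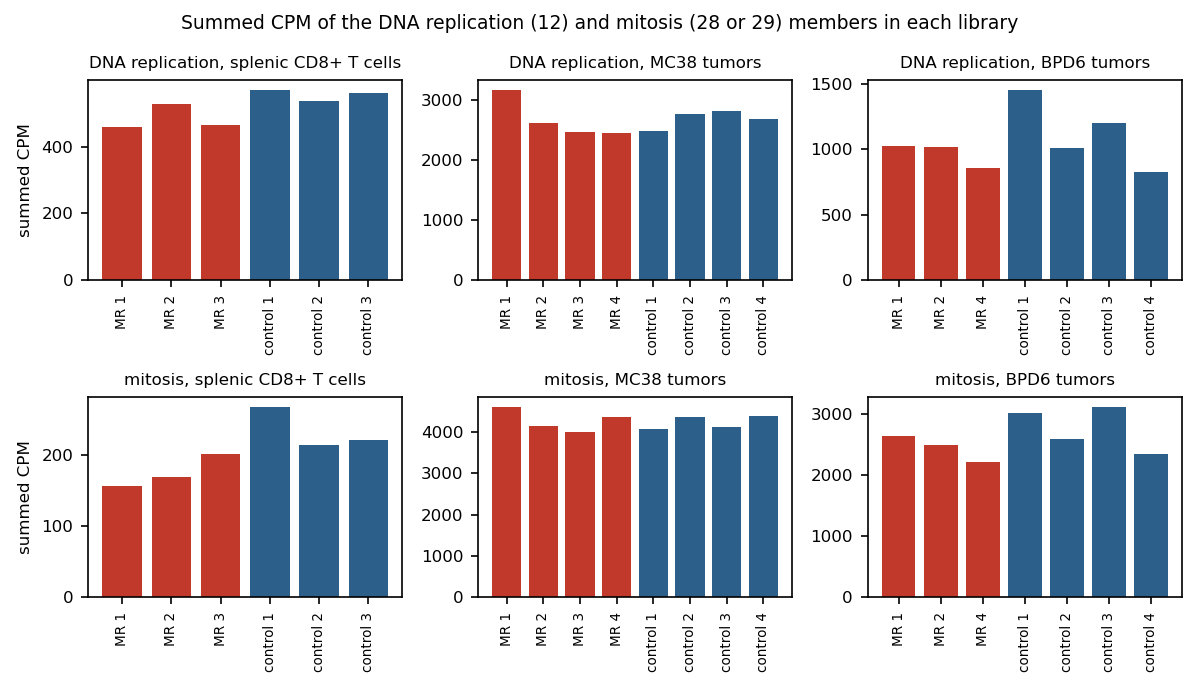
Summed CPM (y axis, from 0) of the replication genes (top) and the mitosis genes (bottom) in every library (x axis, MR in red on the left, control in blue on the right) of the 3 materials. In CD8+ T cells the MR bars are all below the control bars, in MC38 MR library 1 is the highest bar of both kinds, and in BPD6 the bars of the groups overlap.

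A further 6 mitosis genes had fold changes above 0 in CD8+ T cells, and 0 of them passed the test. Anln, which encodes the contractile ring protein anillin, stood at 2.19, 2.48 and 2.82 CPM in MR libraries, against 1.03, 1.41 and 0.470 CPM in control libraries. All MR values were above all control values (log2 fold change 1.34 ± 0.56, edgeR adjusted p = 0.224). The kinesin gene Kif23, which acts in cytokinesis, averaged 42.4 ± 1.79 CPM in MR and 33.0 ± 7.18 CPM in control libraries, also without overlap (log2 fold change 0.36 ± 0.17, edgeR adjusted p = 0.303). Ccna2, Plk1, Cdc20 and Bub1b had log2 fold changes of 0.16 to 0.19 with overlapping groups. In all, every MR library was below every control library for 18 of the 44 genes tested, against 10.9% of all genes, and above for 2, against 11.5%. The 18 were 5 of 12 replication, 2 of 5 G1 to S and 11 of 27 mitosis genes.

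Genes outside the set, taken from lists of the same pathways, gave further values, to be read against 0.818% of all genes that fell, 0.591% that rose and 49.6% below 0. Of 45 other replication genes, 1 fell, 0 rose and 27 were below 0. This was Dbf4, the activator of the Cdc7 kinase, at 34.8 ± 5.70 CPM in MR and 66.1 ± 5.65 CPM in control libraries (log2 fold change -0.93 ± 0.16, edgeR adjusted p = 0.0135). Of 63 other mitosis genes tested, 1 fell, 0 rose and 52 were below 0, with a median of -0.51. This was the centromeric histone gene Cenpa, at 19.8 ± 2.46 CPM in MR and 34.9 ± 1.22 CPM in control libraries (log2 fold change -0.82 ± 0.17, edgeR adjusted p = 0.0294). Of 26 regulators, 0 passed the test and 15 were below 0, with E2f2 (-0.62 ± 0.18) and E2f8 (-1.98 ± 0.61) of lowest p (edgeR adjusted p = 0.0998 and 0.113). Of 16 inhibitors of proliferation, 11 were below 0 and 1 fell, the stress gene Gadd45b (-1.17 ± 0.23, edgeR adjusted p = 0.0254). Of 14 chromatin and tubulin genes, 9 were below 0 and 1 fell, the microtubule destabiliser gene Stmn1 (-1.004 ± 0.21, edgeR adjusted p = 0.0294).

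Markers of T cells and of other cells also differed between these libraries. The 8 listed T cell markers summed to 4363 to 4754 CPM in MR libraries and 4817 to 5256 CPM in control libraries, and 4 of 8 were below 0. The 10 B cell markers summed to 74.0 to 122 CPM in MR libraries and 63.1 to 294 CPM in control libraries, and 9 of 10 were below 0. The 10 NK cell markers summed to 288 to 486 CPM in MR libraries and 476 to 759 CPM in control libraries, all 10 were below 0 and Klre1 fell (log2 fold change -1.44 ± 0.30, edgeR adjusted p = 0.0294). The 10 effector CD8+ genes summed to 141 to 180 CPM in MR libraries and 216 to 259 CPM in control libraries, with all 10 below 0 and 0 passing the test. Red cell markers summed to 13.5 to 31.0 CPM in MR libraries and 31.8 to 65.2 CPM in control libraries, and 3 of 5 tested were below 0. The 6 listed germinal centre and plasma cell markers summed to 56.2 to 63.3 CPM in MR libraries and 67.9 to 86.3 CPM in control libraries, and all 5 tested were below 0. Macrophage markers summed to 192 to 380 CPM in MR libraries and 244 to 430 CPM in control libraries, and 7 of 12 were below 0. Of the 12, 1 fell, the lysozyme gene Lyz2 (log2 fold change -1.30 ± 0.30, edgeR adjusted p = 0.0456). The 10 dendritic cell markers summed to 220 to 278 CPM in MR libraries and 240 to 272 CPM in control libraries. Of 9 tested, 7 were below 0 and 0 passed the test. The part of these cells in the result was not tested.

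**Figure D4:**
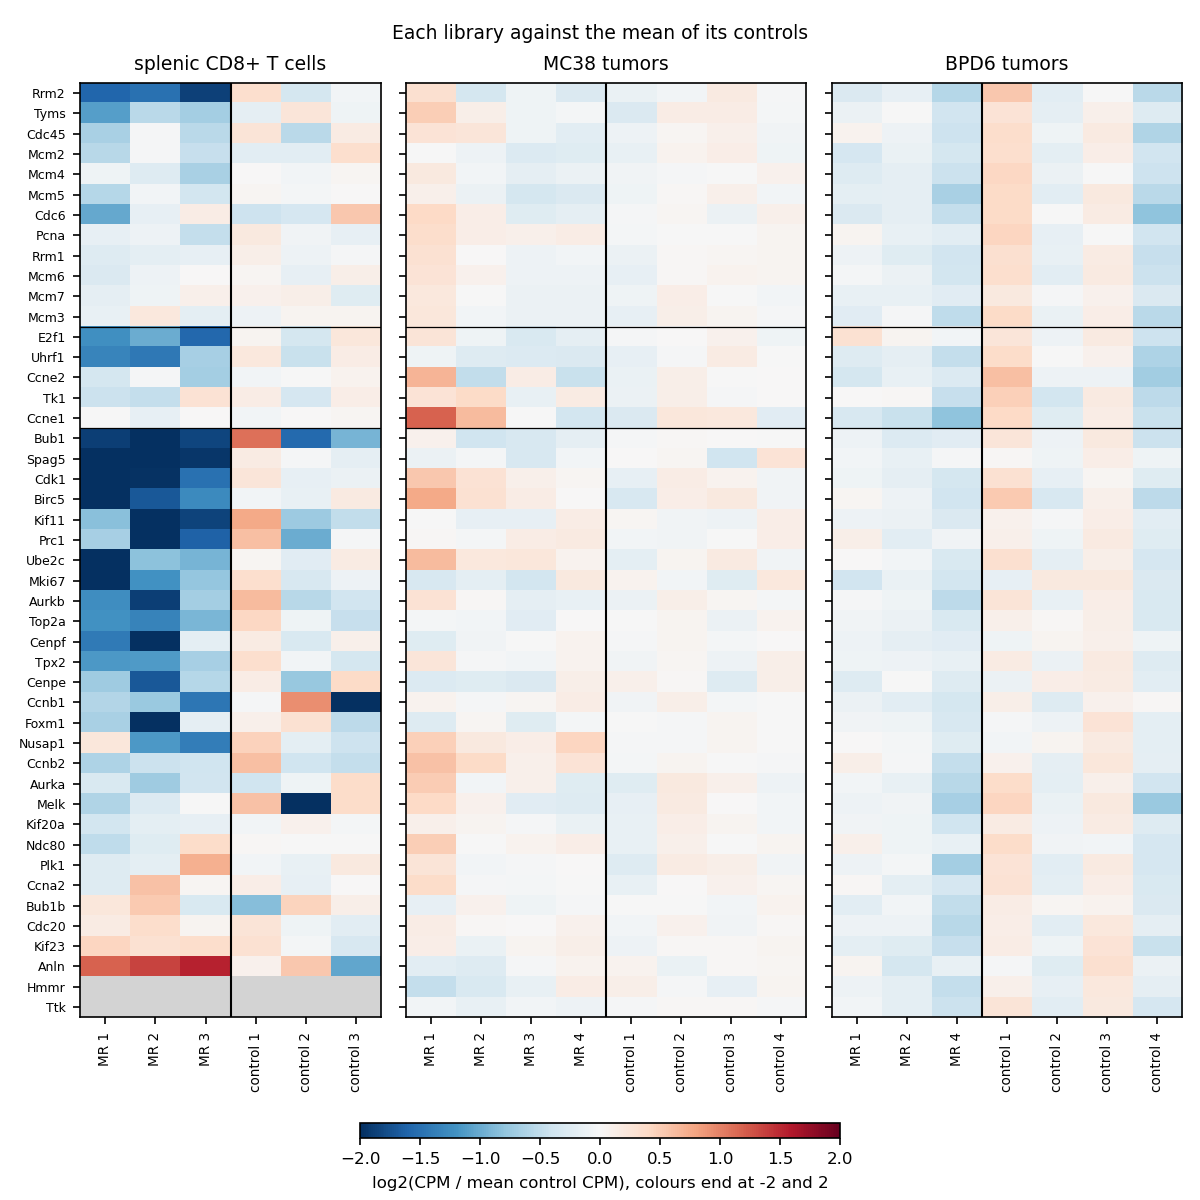
Log2 of the CPM of each library over the mean CPM of its controls (colour, blue lower and red higher, ending at -2 and 2) for every gene (vertical axis) and library (horizontal axis, MR left of the black line and control right of it), with Hmmr and Ttk in grey as not tested in CD8+ T cells. MR columns of CD8+ T cells are blue for most mitosis genes, MR 1 of MC38 is red for most genes, and the BPD6 columns differ within both groups.

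In MC38 tumors the set showed no common direction. Of 46 genes tested, 0 passed the test (edgeR, 0% of 14034 genes did). DESeq2 and limma-voom also called 0 of them, against 396 and 0 of all 14034 genes. The authors' deposited table lists 0 of the 46 below 0.05, against 1.23% of all genes lower and 1.04% higher. At an unadjusted p under 0.05 there were 3, namely Ccnb2, Nusap1 and Uhrf1, against 14.1% of all genes. The log2 fold change was below 0 for 20 of the 46, against 46.4% of all genes, and its median was 0.03, against 0.02 for all genes. MR library 1 was the highest of the 8 for 28 of the 46 genes, and without it the median was -0.05 and 32 genes were below 0.

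Cyclin B2 (Ccnb2) stood at 102, 88.8, 73.2 and 81.8 CPM in MR tumors, against 66.2, 70.8, 67.6 and 66.9 CPM in control tumors. All MR values were above all control values (log2 fold change 0.35 ± 0.10, edgeR adjusted p = 0.259). Nusap1, which encodes a spindle-associated protein, was also above in every MR tumor (0.31 ± 0.09, edgeR adjusted p = 0.259), as was Pcna (0.19 ± 0.08, edgeR adjusted p = 0.362). These were 3 of 46 genes, against 4.05% of all genes, and Ttk, a spindle checkpoint kinase gene, was the 1 gene below in every MR tumor (-0.09 ± 0.08), against 4.72% of all genes. Uhrf1 stood at 240, 213, 211 and 208 CPM in MR tumors, against 228, 251, 288 and 255 CPM in control tumors, with MR library 1 inside the control range (log2 fold change -0.23 ± 0.10, edgeR adjusted p = 0.332).

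The genes that fell in CD8+ T cells lay on both sides of 0 in MC38. Cdk1 stood at 234, 197, 173 and 165 CPM in MR tumors, against 144, 179, 170 and 154 CPM in control tumors (log2 fold change 0.25 ± 0.13, edgeR adjusted p = 0.398). Birc5 stood at 142, 103, 93.0 and 84.2 CPM in MR tumors, against 67.2, 91.5, 96.1 and 79.7 CPM in control tumors (0.34 ± 0.17, edgeR adjusted p = 0.405). Both overlapped, with MR library 1 the highest. Mki67 (-0.16 ± 0.14), Spag5 (-0.13 ± 0.14), Rrm2 (-0.08 ± 0.15) and Top2a (-0.08 ± 0.09) had values below 0 with overlapping groups. Cyclin E1 (Ccne1) varied widely among MR tumors, at 60.4, 41.2, 26.4 and 20.5 CPM, against 21.6, 31.1, 30.7 and 22.8 CPM in control tumors (0.48 ± 0.31, edgeR adjusted p = 0.476). Ube2c had a log2 fold change of 0.30 ± 0.14, and Mcm2, Mcm5, Foxm1 and E2f1 had -0.15, -0.15, -0.12 and -0.07. Tyms had 0.14, Ccna2 0.09, Ccnb1 0.06, and Cdc6, Ccne2 and Rrm1 had 0.05, 0.05 and 0.04.

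The other cell cycle lists gave 0 calls in MC38. Of 45 other replication genes 19 were below 0, of 70 other mitosis genes 36, of 27 regulators 17, of 19 inhibitors 5 and of 14 chromatin and tubulin genes 1, against 46.4% of all genes. The cyclin D2 gene Ccnd2, of lowest p among regulators, averaged 182 ± 28.1 CPM in MR and 254 ± 32.4 CPM in control tumors (log2 fold change -0.48 ± 0.13, edgeR adjusted p = 0.256). Mybl2 followed among regulators (-0.15 ± 0.08), Pola1 (-0.30 ± 0.09) and Timeless (-0.26 ± 0.09) had the lowest p of the replication list, and Kif14 (-0.29 ± 0.09) and Pttg1 (0.49 ± 0.17) of the mitosis list. Among inhibitors these were Ccng2 (0.38 ± 0.14) and Cdkn2d (0.29 ± 0.11), and among chromatin and tubulin genes Stmn1 (0.38 ± 0.11) and H2afx (0.23 ± 0.09). Tumor content differed between libraries. Muscle markers summed to 7.12 to 2872 CPM in MR and 10.4 to 2545 CPM in control tumors, fat markers to 38.5 to 553 CPM in MR and 16.2 to 118 CPM in control tumors, T cell markers to 16.8 to 81.4 CPM in MR and 16.4 to 30.003 CPM in control tumors, and macrophage markers to 883 to 2310 CPM in MR and 701 to 1350 CPM in control tumors. MR library 1, highest for 28 of the 46 genes, was the lowest MR tumor in macrophage markers (883 CPM). Control library 1 had 701 CPM in these markers, and was the highest for 0 and the lowest for 15 of the 46 genes. The part of these cells in the values was not tested.

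In BPD6 tumors nearly all of the set had fold changes slightly below 0, none of which passed the test. Of 46 genes tested, 0 passed the test (edgeR, 0% of 13978 genes did), and 0 had an unadjusted p under 0.05, against 1.85% of all genes. DESeq2 and limma-voom called 0 of them, against 1 and 0 of all genes. The authors' deposited table lists 0 of the 46 below 0.05, against 0.00659% of all genes higher. The log2 fold change was below 0 for 45 of 46 genes, against 51.6% of all genes, with E2f1 (0.11 ± 0.17) above 0. The median was -0.24 for replication and -0.17 for mitosis genes, against -0.01 for all genes. The control tumors differed among themselves. Control library 1 was the highest of the 7 for 29 genes and control library 3 for 16, whereas control library 4 was the lowest for 19 and MR library 4 for 24. Without control library 1 the median over the set, -0.18 with all tumors, was -0.10 and 38 genes were below 0, and without MR library 4 it was -0.11.

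For 18 of the 46 genes all MR tumors lay within the control range. Mcm2 stood at 74.4, 85.9 and 73.8 CPM in MR tumors, against 119, 82.3, 104 and 72.3 CPM in control tumors (log2 fold change -0.27 ± 0.18, edgeR adjusted p = 0.9997). Birc5 stood at 44.3, 39.9 and 32.9 CPM in MR tumors, against 61.9, 34.3, 46.0 and 29.8 CPM in control tumors (-0.14 ± 0.25). In both genes the control tumors spanned a wider range than the MR tumors. Cenpf, which encodes a kinetochore protein, was the 1 gene without overlap, at 69.3, 65.9 and 63.8 CPM in MR tumors, against 70.5, 77.7, 80.4 and 70.3 CPM in control tumors (-0.17 ± 0.09). All MR tumors were below all control tumors for 1.9% of all genes, and above for 1.5%, here 0 of the 46.

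Ccne1 had the lowest p of the set in BPD6. It stood at 14.2, 13.0 and 10.1 CPM in MR tumors, against 23.3, 14.9, 19.6 and 13.0 CPM in control tumors, and control library 4 overlapped with the MR tumors (log2 fold change -0.51 ± 0.23, unadjusted p = 0.0567, edgeR adjusted p = 0.9997). Mki67 stood at 152, 180 and 154 CPM in MR tumors, against 176, 227, 227 and 162 CPM in control tumors (-0.29 ± 0.15). The other genes of low p were Kif23 (-0.30 ± 0.17), Hmmr (-0.25 ± 0.14) and Ccnb1 (-0.23 ± 0.12). Of the genes that fell in CD8+ T cells, Rrm2 had -0.33 ± 0.24, Uhrf1 -0.30 ± 0.21, Cdk1 -0.20 ± 0.14 and Spag5 -0.08 ± 0.09 in BPD6. Among replication genes Mcm5 had -0.32, Cdc6 -0.31, Rrm1 -0.24, Tyms -0.16 and Pcna -0.09. Ccne2 had -0.25, and Top2a, Ccna2 and Foxm1 had -0.16 each.

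The related lists also gave 0 calls in BPD6. Of 45 other replication genes 42 were below 0 (median -0.16), and of 70 other mitosis genes 68 (median -0.15), against 51.6% of all genes. Of lowest p were Exo1 (-0.52 ± 0.23) and Pola1 (-0.24 ± 0.12) for replication, and Sgo2a (-0.27 ± 0.10) and Kif18b (-0.26 ± 0.11) for mitosis. Of 27 regulators 24 were below 0, with Skp2, which encodes the F-box protein that marks p27 for degradation, at -0.35 ± 0.14 and E2f8 at -0.28 ± 0.11. Of 18 inhibitors 6 were below 0, and the antiproliferative genes Btg1 (0.26 ± 0.12) and Btg2 (0.41 ± 0.18) had the lowest p. Of 14 chromatin and tubulin genes 12 were below 0, with Dek (-0.15 ± 0.09) and Lmnb1 (-0.31 ± 0.22) of lowest p. Muscle markers summed to 53.0 to 4644 CPM in MR and 117 to 6507 CPM in control tumors. The part of muscle and of the other cells in the values was not tested.

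The diet effect was compared between the tumor models in a joint fit of 14257 genes. Of 46 genes, 0 passed the test of the interaction (edgeR, 0% of all genes did). DESeq2 and limma-voom called 0 of them, against 7 and 0 of all genes. At an unadjusted p under 0.05 there were 5, namely Nusap1, Cdk1, Ccnb2, Ccne1 and Ccnb1, against 5.2% of all genes. For Nusap1 different transcripts were counted in the 2 models. When only genes with the same transcript in both were fitted, 1 of 37 members was under 0.05, against 510 of 10403 genes. The difference in log2 fold change, MC38 minus BPD6, was above 0 for 44 of 46 genes with a median of 0.22, against 0.03 for all genes. It was 0.998 ± 0.43 for Ccne1, 0.46 ± 0.19 for Cdk1 and 0.40 ± 0.15 for Nusap1 (edgeR adjusted p = 0.849 for each). The median was 0.11 without BPD6 control library 1, 0.14 without BPD6 MR library 4 and 0.15 without MC38 MR library 1. A difference between the models in the response of these genes was thus not detectable in these samples.

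On the control diet the level of the set differed between the tumor models. Of 46 genes, 31 were higher in MC38 than in BPD6 (edgeR adjusted p under 0.05), against 30.7% of 14257 genes, and 3 were lower, against 32.6%. At an unadjusted p under 0.05 there were 35, against 66.6%. The median log2 difference was 1.04 for replication genes and 0.37 for mitosis genes, against -0.04 for all genes. Cdc6 stood at 49.8, 52.1, 46.6 and 54.6 CPM in MC38, against 17.1, 13.1, 14.6 and 7.46 CPM in BPD6 control tumors (log2 difference 1.69 ± 0.21, edgeR adjusted p = 7.58e-06). Mcm3 (1.47 ± 0.17), Mcm5 (1.45 ± 0.18), Spag5 (1.39 ± 0.12), Rrm2 (1.37 ± 0.20) and Top2a (1.11 ± 0.10) were also higher in MC38. The tables count different transcripts of Mcm5 and Spag5 in the models.

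The 3 genes lower in MC38 all act in mitosis or cytokinesis. Cenpf stood at 47.8, 50.5, 47.1 and 49.2 CPM in MC38, against 70.5, 77.7, 80.4 and 70.3 CPM in BPD6 control tumors (log2 difference -0.89 ± 0.08, edgeR adjusted p = 2.91e-07). Anln had a log2 difference of -0.85 ± 0.12 and Prc1, a microtubule bundler of the central spindle, -0.59 ± 0.10. Mitosis genes such as Ccna2 (0.13 ± 0.13), Foxm1 (-0.06 ± 0.10), Kif20a (-0.03 ± 0.11) and Cdc20 (0.04 ± 0.11) did not pass the test. The number that passed was 27 when only genes with the same transcript in both tables were used, of 37 such members.

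Across the materials on the control diet the order was MC38, then BPD6, then CD8+ T cells for 40 of the 45 genes listed in all tables. The tables were scaled separately, so that these levels are described without a test. They also count different transcripts of some genes in T cells and tumors, which limits the ratios. For Birc5 the transcript has 3334 bases in T cells and 947 bases in both tumor models. The T cell rows of Tyms and Cdc6 refer to noncoding transcripts, and the tumor rows to coding ones. The ratio of mean CPM in MC38 over CD8+ T cells had a median of 5.65 for replication genes and 28 for mitosis genes, and that in BPD6 over CD8+ T cells a median of 1.99 and 19.9. Mcm7 averaged 245 CPM in MC38, 86.8 CPM in BPD6 and 92.9 CPM in T cells, and the BPD6 and T cell libraries overlapped. Ccnb1 averaged 148 CPM in MC38, 107 CPM in BPD6 and 1.31 CPM in T cells. Ccne1 was the 1 gene highest in T cells, with 31.1 CPM, against 26.6 CPM in MC38 and 17.7 CPM in BPD6. All its T cell controls lay between 30.02 and 32.1 CPM, and MC38 control tumors reached 31.1 CPM.

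**Figure D5:**
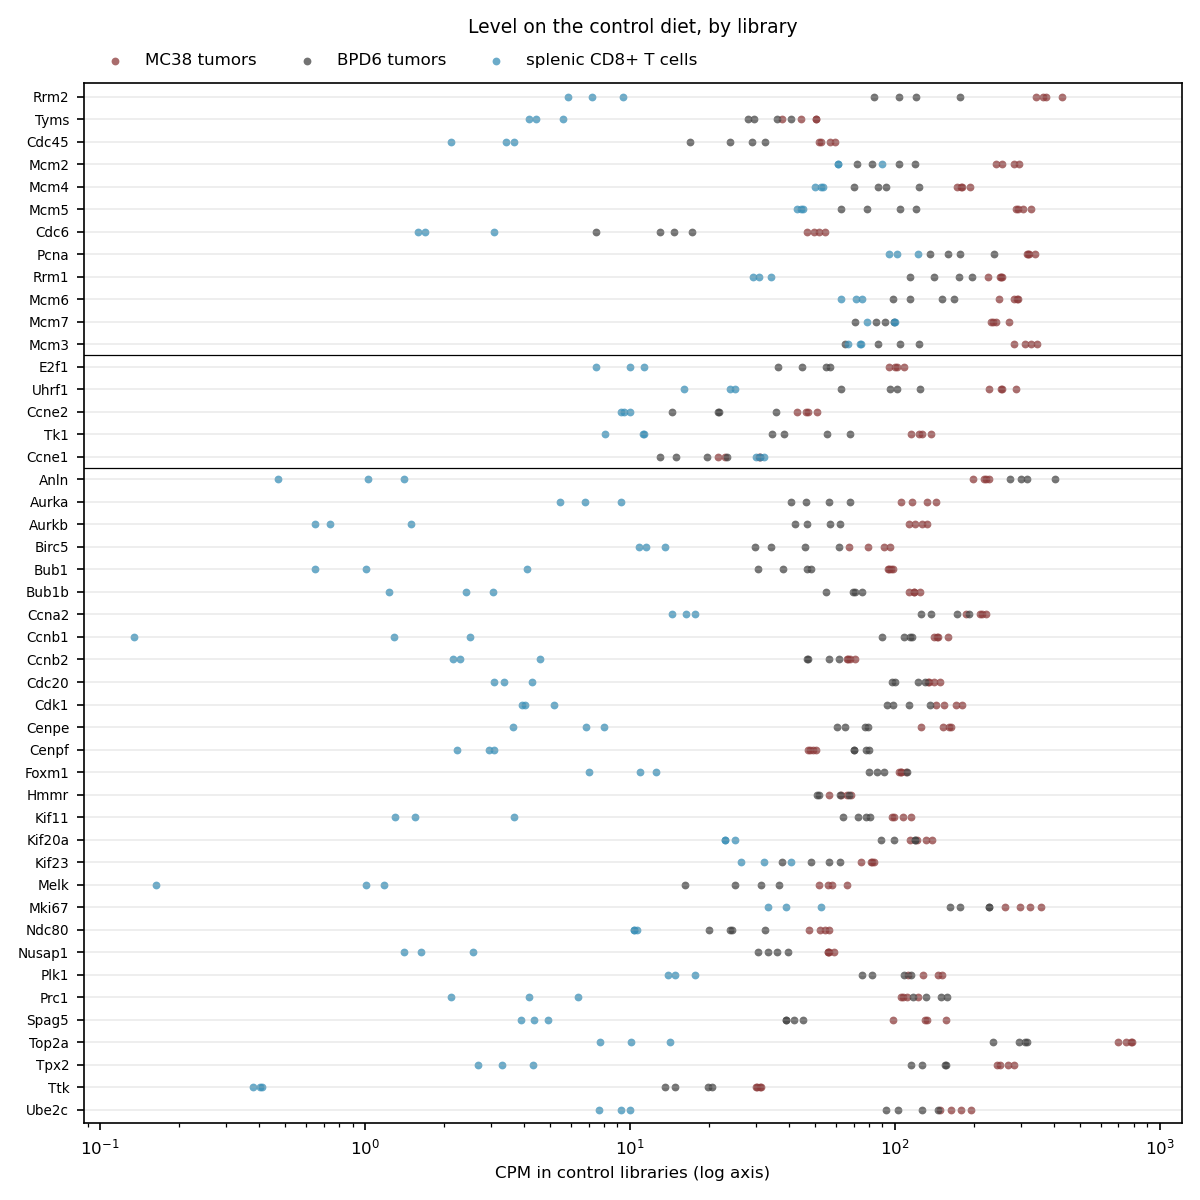
CPM in the control libraries (x axis, log scale) of every gene (y axis, replication, G1 to S and mitosis genes separated by lines), with a point for each library of MC38 (dark red), BPD6 (grey) and CD8+ T cells (blue). T cells lie close to BPD6 for several MCM genes and far below both tumors for most mitosis genes, and Ccne1 is the 1 gene whose mean is higher in T cells than in both tumors.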

How the data were processed

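RNA was sequenced from splenic CD8+ T cells, MC38 tumors and BPD6 tumors, 21 libraries in all. The authors deposited, for each material, estimated counts per gene and library in multiples of 0.5, together with their own comparison, from which the log2 fold changes, p-values and adjusted p-values are quoted only as the authors' deposited table. The deposited normalized signal columns (21 per-library columns and a mean) were not used. Reads refer to GRCm38 (mm10), per the submitters' processing notes; the sources used here name neither aligner nor counter. The deposited tables hold no gene whose highest count is under 6.

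Estimated counts were rounded to whole numbers, filtered with filterByExpr, scaled by TMM and tested per material with edgeR 4.0.16 (quasi-likelihood, R 4.3.3), with Benjamini-Hochberg adjustment over all genes tested and a threshold of 0.05. CPM were computed from the same counts and factors. The tumor tables were also fitted jointly for the interaction of diet and tumor model. Alternatives were other scalings, no filter, unrounded counts, DESeq2 1.42.0, limma-voom (limma 3.58.1), each library left out and a replicate block. The code was tested on simulated data. No pair of libraries of a group agreed within sampling noise (lowest chi-square per degree of freedom 12.23). Gene positions and promoters are those of RefSeq (GRCm38.p6), and exon overlaps those of GENCODE M21.

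The genes of the set and the other lists were chosen with earlier results of these data known. The genes named are, per material, those that passed the test, the 6 of lowest p and 18 named in every material, and from each other cell cycle list those that passed or else the 2 of lowest p. Bub1, Anln, Kif23, Ttk, Plk1, Cdc20 and Bub1b in the diet comparisons, and the examples in the comparison of tumor models, were chosen after their values were seen.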

Additional observations from a re-analysis of the deposited data

Results flagged for a closer look

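Among 71 groups of 4 libraries examined for a library far from the other 3, 4 had one, and chance gives about 1 in 20. In MC38 MR tumors, library 1 stood apart as the highest for Pcna (414 CPM, next 358), for Uhrf1 (240 CPM, next 213) and for Ccna2 (268 CPM, next 207). In MC38 control tumors, library 1 stood apart as the lowest for Rrm1 (225 CPM, next 251).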

How the results depend on the processing

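With 1 library left out, calls over all genes in CD8+ T cells ranged from 7 to 290, against 174 with all libraries. The number of genes of the set that passed the test there, 6, ranged from 0 to 6. The median log2 fold change of the set, -0.42, ranged from -0.54 to -0.31. Without control libraries 1 and 3, a choice made after seeing the data, 1 control library remained, so the number of 0 (and a median of -0.29) comes with the loss of controls; Birc5 had -1.49 and Uhrf1 -0.66 there. In BPD6 the median, -0.18, was -0.28 without control library 4 and -0.32 without control library 4 and MR library 2, a pair also chosen after seeing the data. Deviations of same-numbered libraries from their group means had correlations of -0.18 to 0.04 in CD8+ T cells and -0.28 to 0.38 in MC38. With 3 or 4 libraries a group, these values cannot decide whether the numbers pair the libraries. With the replicate block the number of genes of the set that passed was 3 in CD8+ T cells and 0 in MC38. No paired analysis was possible for BPD6 because its MR columns could be matched to the group only. Across alternatives the number stayed 0 in MC38, in BPD6 and for the interaction, and between 27 and 36 for MC38 against BPD6. Of 266 single-gene values in CD8+ T cells (19 genes under 14 alternatives), 31 lost and 5 gained the call, and 0 changed sign while called. Only the 6 called genes could lose it. Of the 14 alternatives, Birc5 kept its call in 12, Mki67 in 11, Rrm2 in 9, Uhrf1 and Spag5 in 8 each and Cdk1 in 5. With 3 libraries a group and levels near 1 CPM for several mitosis genes in T cells, differences of moderate size in these genes were not detectable.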
